A study of Mus musculus with 11 samples.

Results

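The genes described here encode components of perineuronal nets: the lecticans Acan, Bcan, Ncan and Vcan, the link proteins Hapln1, Hapln2 and Hapln4, tenascin-R (Tnr), and the hyaluronan synthases Has2 and Has3. These 10 genes were chosen by name from what their proteins do, with earlier results of these data known. They came out of 24391 gene symbols in the count table of the heterozygous round and 24015 in that of the homozygous round. All 10 had rows in both tables. RNA was measured by bulk RNA-seq in hippocampus of C57BL/6N mice at postnatal day 32 (P32; the tissue label says only adult), with no treatment named in the labels. The mice carried a germline deletion of 1b, a non-coding regulatory region of the sodium channel gene Scn1a, on 1 allele (1b+/-, 4 mice, of which 3 were male) or both alleles (1b-/-, labelled KO, a male as replicate 1 and a female as replicate 2), or were wildtype (WT). All mutants came from a single Cas9-made deletion line, in which the deletion is present in every cell. Each mutant group had WT mice of its own sequencing round. The heterozygous round, read as pairs, held 3 male WT mice, and the homozygous round, read from a single end, held 2 female WT mice. Replicates were numbered in accession order and the numbers do not link mice across groups.

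A perineuronal net is a lattice of extracellular matrix that wraps the soma and proximal dendrites of certain neurons. Hyaluronan, a long sugar polymer made at the plasma membrane by hyaluronan synthases, forms its backbone. Lecticans are chondroitin sulfate proteoglycans that bind hyaluronan at their amino-terminal end, link proteins stabilise that bond, and tenascin-R crosslinks lecticans at their other end. In hippocampus, nets surround many parvalbumin interneurons and also pyramidal cells of CA2. The same families serve the looser matrix and the nodes of Ranvier, so the RNA of these genes does not measure nets as such: Bcan and Ncan are made by glia and neurons, Vcan largely by oligodendrocyte precursors, and Hapln2 by oligodendrocytes, whose matrix lies at nodes.

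Library totals ran from 20667122 to 36145161 counts, and the 10 genes together took 0.0892% to 0.107% of the counts of a library. Scn1a was read in every library as a check of the genotype labels. It stood at 135.6 ± 31.0 CPM (the gene's counts relative to the library total, scaled within the round, SD, n = 3) in WT and 97.6 ± 15.5 (SD, n = 4) in 1b+/- mice, a log2 fold change of -0.47 that did not pass the quasi-likelihood test of edgeR, Benjamini-Hochberg adjusted across tested genes (adjusted p = 0.303). The groups overlapped, with 1b+/- replicate 4 at 119 CPM above WT replicate 2 at 113 CPM, and the log2 fold change was -0.27 without WT replicate 1. In the homozygous round it fell from 153.2 ± 27.5 to 21.5 ± 6.80 CPM (SD, n = 2 each, log2 fold change -2.83, edgeR adjusted p = 0.0211), with no overlap. With a WT library left out the log2 fold change stayed near that size (-3.00 without WT replicate 1 and -2.64 without WT replicate 2), although the adjusted p in edgeR then rose to 0.101 and 0.0601.

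The 2 WT libraries of the homozygous round went against their tissue label (sums below are in CPM scaled within each round). A list of 8 markers of hippocampal principal neurons summed to 157 and 195 CPM in them, against 684 to 750 in 1b-/- mice and 479 to 632 in the heterozygous round. A list of 10 striatal markers summed to 1884 and 4737 CPM in these 2 libraries and to 106 to 234 CPM in the other 9. A list of 6 basal forebrain cholinergic markers summed to 44.1 and 104 CPM, against 1.79 and 2.82 in 1b-/- mice, where Lhx8 was at or under 3 counts over the group. Libraries of the heterozygous round also differed in tissue content, with 6 thalamus markers summing to 194 to 677 CPM among WT and 211 to 512 CPM among 1b+/- mice. In the homozygous comparison 4 of 8 hippocampal markers were called higher and 7 of 10 striatal markers lower in 1b-/- mice. Genotype and the tissue held by the WT libraries therefore cannot be told apart in that comparison, and every value of the homozygous comparison rests on these libraries. In bulk tissue, fewer cells of a type and less RNA per cell cannot be told apart either.

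The order of levels was read from CPM per kilobase of exon (the union of the exons of a gene). In WT mice of the heterozygous round Bcan was highest at 82.5 ± 3.56 CPM per kilobase (SD, n = 3), followed by Ncan at 50.4 ± 1.58, Tnr at 25.4 ± 1.51, Hapln4 at 19.1 ± 1.25 and Hapln1 at 11.1 ± 0.839. Below them stood Hapln2 at 5.40 ± 1.44, Vcan at 2.17 ± 0.311, Acan at 0.792 ± 0.127, Has3 at 0.743 ± 0.183 and Has2 at 0.157 ± 0.00846 CPM per kilobase (SD, n = 3 each). The library ranges of neighbours did not overlap except for Acan (0.659 to 0.913) and Has3 (0.581 to 0.941). Aggrecan, the lectican most closely tied to nets, was thus the lowest of the 4 lecticans in RNA of whole hippocampus.

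In 1b+/- mice the order was the same, and again Acan (0.793 to 0.952 CPM per kilobase) and Has3 (0.616 to 0.952) were the neighbours that overlapped. In the homozygous round the WT order put Hapln4 (22.0 to 25.7) and Hapln2 (13.7 to 26.6) above Tnr (12.3 to 16.6), with overlap between each of these neighbours, and Has3 above Acan with overlap. In 1b-/- mice Hapln4 (38.2 to 62.5) overlapped Ncan (40.8 to 47.8), and Hapln2 (7.64 to 11.1) overlapped Hapln1 (6.77 to 9.32). Bcan was the highest and Has2 the lowest of the 10 genes in each of the 4 groups.

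**Figure D1:**
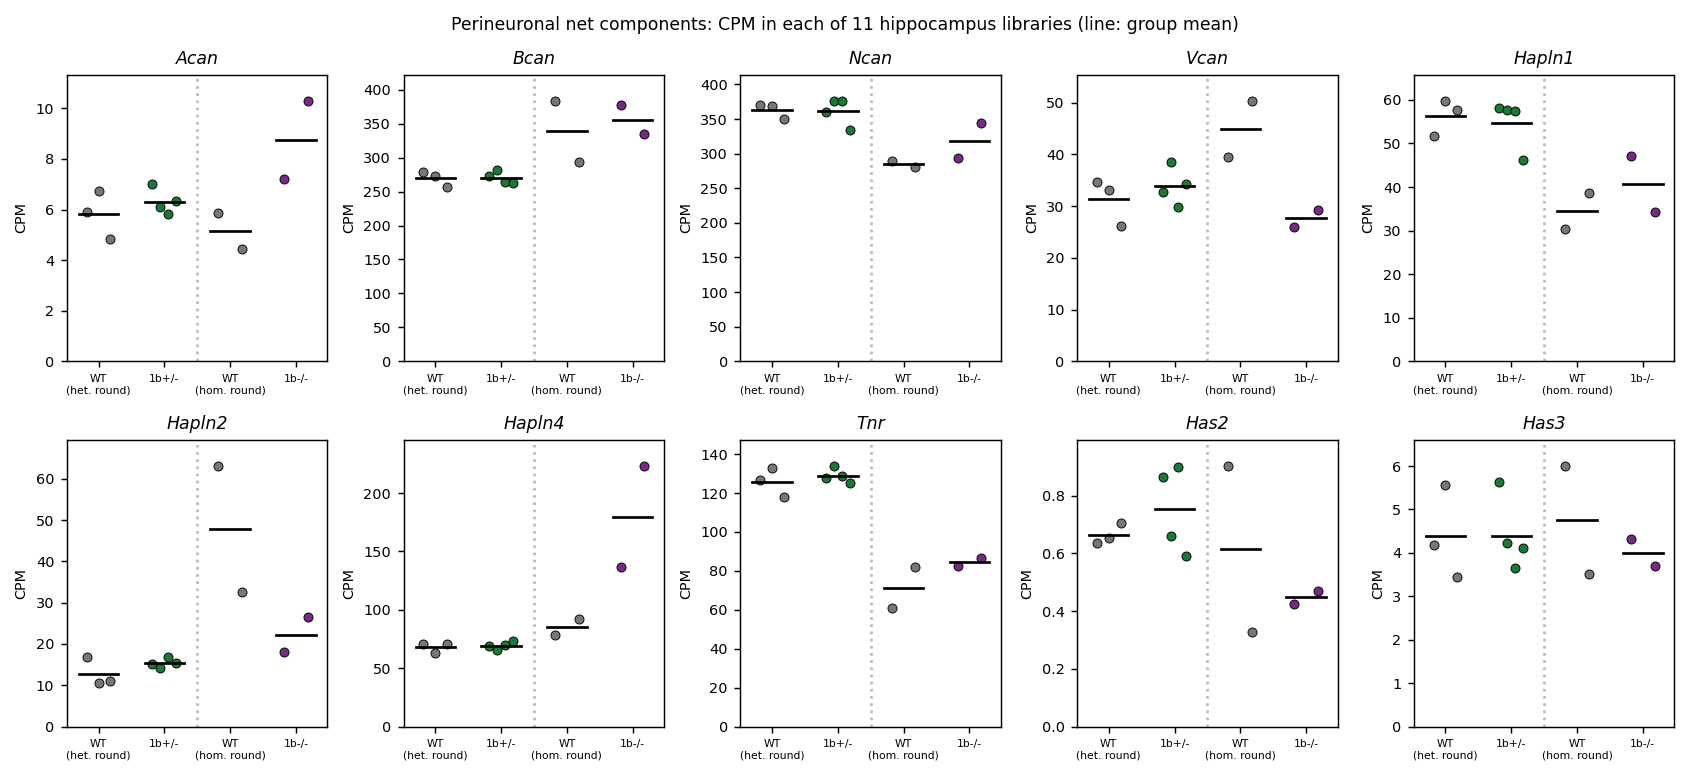
Each panel plots 1 gene in CPM (linear axis from 0, scaled within the round) for the 3 WT and 4 1b+/- mice of the heterozygous round on the left of the dotted line and the 2 WT and 2 1b-/- mice of the homozygous round on its right. Points are libraries and lines are group means. Groups overlap in every panel on the left. On the right 6 of the 9 tested genes do not overlap, against 59.7% of all genes. Acan, Ncan, Hapln4 and Tnr are higher and Vcan and Hapln2 lower in both 1b-/- mice than in both WT mice.

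With 1 deleted allele, no perineuronal net gene differed from WT beyond the spread between mice. Of the 10 genes, 9 reached 1 CPM in at least 1 library and were tested, and 0 were called at an adjusted p under 0.05, as were 0% of the 14630 genes tested by edgeR's quasi-likelihood test. None reached an unadjusted p under 0.05, against 11.3% of all genes, and none had groups that did not overlap, against 10.9% of all genes. edgeR's likelihood ratio test and DESeq2 also called 0 of the 9. The median log2 fold change was 0.02 over the 9 genes and 0.00 over all genes tested.

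Among the lecticans, Bcan read 278, 274 and 256 CPM in WT and 274, 281, 264 and 263 CPM in 1b+/- mice. Its log2 fold change of 0.01 (SE 0.04) had a 95% interval of -0.09 to 0.10, and the groups lay within the same range. Ncan, the most abundant in plain CPM, read 370, 369 and 350 CPM in WT and 360, 377, 377 and 334 CPM in 1b+/- mice, with a log2 interval of -0.11 to 0.11. These intervals leave little room for a change in either gene, while those of the scarcer lecticans were wider.

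Acan read 5.91, 6.72 and 4.85 CPM in WT (110 to 175 counts) and 7.005, 6.09, 5.83 and 6.34 CPM in 1b+/- mice. The log2 fold change was 0.11 (SE 0.13), with an interval of -0.17 to 0.40. Vcan read 34.7, 33.0 and 26.2 CPM in WT and 32.7, 38.6, 29.9 and 34.2 CPM in 1b+/- mice, a log2 fold change of 0.11 (SE 0.11, interval -0.13 to 0.35). In both genes WT replicate 3 was the lowest of the 7 libraries.

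Of the link proteins, Hapln1, made by many neurons that carry nets, read 51.6, 59.8 and 57.6 CPM in WT and 58.0, 57.6, 57.4 and 46.1 CPM in 1b+/- mice, with a log2 fold change of -0.04 (SE 0.09). The low value belonged to the female 1b+/- mouse, the only female of that round. Hapln4, a link protein of neurons that accompanies brevican in nets, read 70.9, 63.1 and 70.8 CPM in WT and 69.1, 65.5, 69.8 and 73.3 CPM in 1b+/- mice. Its log2 fold change was 0.02 (SE 0.06) with an interval of -0.10 to 0.15, so that 1b+/- mice stayed at 102% of the WT mean.

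Hapln2 had the largest difference of the 9 genes in the heterozygous round. It read 16.7, 10.6 and 11.02 CPM in WT and 15.1, 14.3, 16.9 and 15.5 CPM in 1b+/- mice, a log2 fold change of 0.26 (SE 0.15, interval -0.07 to 0.60, edgeR adjusted p = 0.548; two-sided exact permutation p = 0.229, where 35 splits allow 0.0286 at the smallest). WT replicate 1 lay among the 1b+/- mice and the other WT mice below all of them. Without WT replicate 1 the log2 fold change was 0.51 and passed the threshold (edgeR adjusted p = 0.0257), in a fit that called 421 genes. The summed CPM of 8 oligodendrocyte markers moved with it, at 10173 in WT replicate 1, 6391 and 6157 in the other WT mice, and 8824 to 10388 in 1b+/- mice, and the part of oligodendrocyte content in this value was not tested.

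Tenascin-R RNA lay within the WT spread on average. Tnr read 127, 133 and 118 CPM in WT and 128, 134, 129 and 125 CPM in 1b+/- mice, with a log2 fold change of 0.04 (SE 0.05, interval -0.07 to 0.15). Has3, a hyaluronan synthase, read 4.17, 5.57 and 3.44 CPM in WT and 5.63, 4.22, 3.64 and 4.11 CPM in 1b+/- mice, a log2 fold change of 0.00 (SE 0.20) whose interval of -0.45 to 0.44 was the widest of the 9. Has2, the other synthase, held 16 to 23 counts in each library of this round, under 1 CPM in all 7, and was not tested at the main filter. With no filter its log2 fold change was 0.18 (SE 0.27).

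With both alleles deleted, the 9 tested genes spread apart, but again 0 were called by edgeR's quasi-likelihood test, which called 3.58% of the 14838 genes tested. Acan, Vcan, Hapln2 and Hapln4, 4 of 9, had an unadjusted p under 0.05, as did 26.4% of all genes. The likelihood ratio test and DESeq2 each called 3, Vcan, Hapln2 and Hapln4, while calling 12.3% and 14.4% of all genes. The groups did not overlap in 6 of 9 genes, against 59.7% of all genes: 4 were higher in both 1b-/- mice (Acan, Ncan, Hapln4, Tnr; 29.5% of all genes) and 2 lower (Vcan, Hapln2; 30.2% of all genes). With 9 genes, counts of this size lie near the background and are no result about these genes. The median log2 fold change was 0.16 over the 9 genes and 0.00 over all genes. A permutation of 2 against 2 mice cannot go below p = 0.333.

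Hapln4 stood highest above WT. Its level was 78.7 and 92.1 CPM in WT and 136.5 and 223 CPM in 1b-/- mice, a 2.11-fold difference in the fit (log2 fold change 1.08, SE 0.26, interval 0.43 to 1.72, edgeR adjusted p = 0.0833). Both 1b-/- mice were above both WT mice, but they differed from each other more than the WT mice did, the female being the higher. With the female as the only mutant the log2 fold change was 1.39 (edgeR adjusted p = 0.0136, in a fit that called 4.69% of genes), and with the male as the only mutant it was 0.68 (edgeR adjusted p = 0.167). In both fits the lone mutant is assumed to vary like the WT pair, and a difference between the sexes was not tested. Against the WT mice of the heterozygous round, a comparison chosen after seeing the data that crosses rounds and read types, Hapln4 was higher by a log2 fold change of 1.32 (edgeR adjusted p = 5.8e-05), in a fit that called 7774 genes.

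Hapln2 lay at the opposite end. Its level was 63.1 and 32.5 CPM in WT and 18.1 and 26.4 CPM in 1b-/- mice, 2.15-fold lower in mutants (log2 fold change -1.10, SE 0.36, interval -2.01 to -0.19, edgeR adjusted p = 0.139). The value depended on WT replicate 1, the highest library: without it the log2 fold change was -0.54, and without WT replicate 2 it was -1.503. Against the WT mice of the heterozygous round the direction turned, to 0.72 (edgeR adjusted p = 0.0451).

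Oligodendrocyte markers moved with Hapln2 here as well. Their sum was 23086 and 16692 CPM in the WT libraries and 11862 and 13915 CPM in 1b-/- mice, and all 8 markers were lower in 1b-/- mice in fold change, with 4 at an unadjusted p under 0.05 and 0 called. Per 1000 CPM of these markers, Hapln2 was 2.73 and 1.95 CPM in WT, 1.53 and 1.90 CPM in 1b-/- mice, and 1.49 to 1.91 CPM in the 7 libraries of the heterozygous round, so that WT replicate 1 stood furthest above the rest and WT replicate 2 just above the highest of the other 9. The part of oligodendrocyte content in the Hapln2 difference was not tested.

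**Figure D2:**
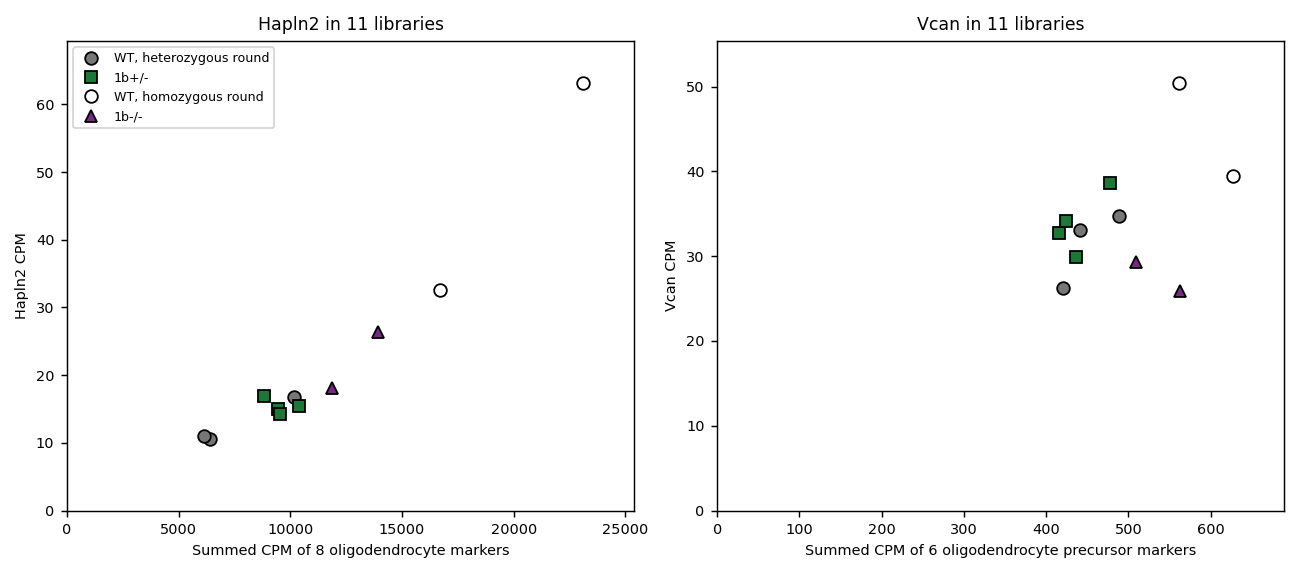
The left panel plots Hapln2 (CPM) against the summed CPM of 8 oligodendrocyte markers and the right panel Vcan (CPM) against the summed CPM of 6 oligodendrocyte precursor markers, 1 point a library, both axes linear from 0. The 2 WT libraries of the homozygous round are highest in Hapln2 (32.5 and 63.1 CPM) and in oligodendrocyte sum (16692 and 23086 CPM). The 1b-/- mice hold less Vcan (25.9 and 29.3 CPM) than those WT libraries (39.5 and 50.4 CPM). Their precursor sums are 563 and 509 CPM, against 627 and 562 CPM in those WT libraries.

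Vcan, versican, read 39.5 and 50.4 CPM in WT and 25.9 and 29.3 CPM in 1b-/- mice, 1.63-fold lower in mutants (log2 fold change -0.70, SE 0.17, interval -1.13 to -0.28, edgeR adjusted p = 0.0833). The 2 mutants were below the 2 WT mice, and on a scale set over all 11 libraries the 1b-/- mice (25.6 and 28.5 CPM) stood at the low end of the heterozygous round (26.9 to 39.6 CPM). The 6 markers of oligodendrocyte precursors summed to 627 and 562 CPM in WT and 563 and 509 CPM in 1b-/- mice. By sign 5 of the 6 were lower and 1 higher in 1b-/- mice, with 1 lower at an unadjusted p under 0.05 and 0 called. Per 1000 CPM of these markers Vcan was 63.0 and 89.7 CPM in WT and 46.1 and 57.5 CPM in 1b-/- mice. The heterozygous round ran from 62.4 to 80.7 CPM. The part of precursor content in the Vcan difference was not tested. Against the heterozygous-round WT mice the log2 fold change was -0.25 (edgeR adjusted p = 0.173).

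Acan read 5.87 and 4.44 CPM in WT (130 and 95 counts) and 7.21 and 10.3 CPM in 1b-/- mice (254 and 329 counts). The log2 fold change was 0.76 (SE 0.28, interval 0.05 to 1.48, edgeR adjusted p = 0.170), and it ranged from 0.48 to 0.999 over 11 other settings, with calls where all 11 libraries shared 1 fit (edgeR adjusted p = 0.0186, in a fit that called 37.2% of genes) and against the heterozygous-round WT mice (log2 fold change 0.51, edgeR adjusted p = 0.0408, 52.2% of genes called). Aggrecan surrounds parvalbumin cells and CA2 pyramidal cells. The 7 parvalbumin interneuron markers summed to 404 and 349 CPM in WT and 378 and 310 CPM in 1b-/- mice, with 0 called. By the sign of the log2 fold change 3 of the 7 were higher and 4 lower, of which 3 lower ones had an unadjusted p under 0.05. Of 7 CA2 markers 5 were higher and 2 lower by sign, with a median log2 fold change of 1.56. Of these, 4 higher and 1 lower had an unadjusted p under 0.05, against 26.4% of all genes. Calls were 1 higher (Rgs14) and 1 lower (Pcp4), against 3.58% of all genes called. These marker values rest on the homozygous-round WT libraries, where hippocampal markers were low and striatal markers high, so that they cannot be told apart from genotype. The part of either cell type in the Acan value was not tested.

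The 2 most abundant lecticans were close to WT. Bcan read 384 and 294 CPM in WT and 377 and 335 CPM in 1b-/- mice (log2 fold change 0.07, SE 0.18, interval -0.38 to 0.52), and the groups overlapped. Ncan read 289 and 281 CPM in WT and 294 and 344 CPM in 1b-/- mice (log2 fold change 0.16, SE 0.14, interval -0.19 to 0.51), without overlap but with 1b-/- replicate 1 only just above WT replicate 1. Intervals of this width do not show that the genes were unaffected.

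Hapln1 read 30.3 and 38.7 CPM in WT and 47.1 and 34.2 CPM in 1b-/- mice, with overlap and a log2 fold change of 0.24 (SE 0.21). Tnr read 60.7 and 82.2 CPM in WT and 82.5 and 86.5 CPM in 1b-/- mice, a log2 fold change of 0.24 (SE 0.18) in which WT replicate 1 was the low library. Has3 read 6.00 and 3.51 CPM in WT and 4.32 and 3.70 CPM in 1b-/- mice (log2 fold change -0.25, SE 0.35). Hapln1 and Has3 thus overlapped between groups and Tnr did so nearly, all with intervals that held 0. Has2 held 20 and 7 counts in WT and 15 and 15 counts in 1b-/- mice, below 1 CPM throughout, and its unfiltered log2 fold change was -0.45 (SE 0.77).

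**Figure D3:**
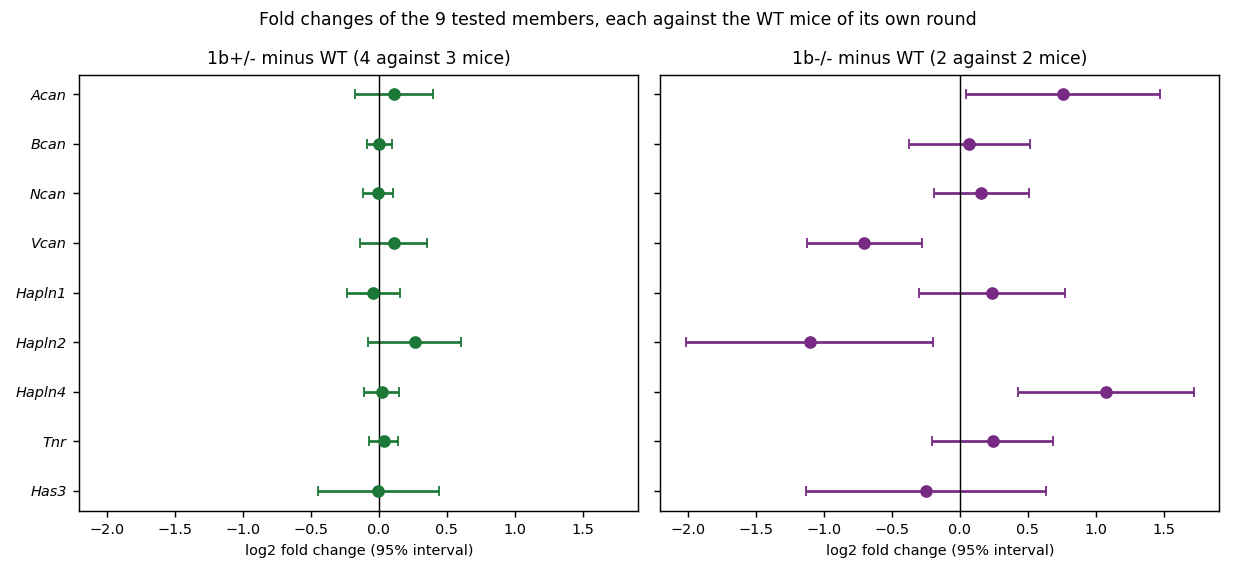
Points are log2 fold changes of the 9 tested genes from edgeR's quasi-likelihood fit and bars are 95% intervals, for 1b+/- minus WT (left, 4 against 3 mice) and 1b-/- minus WT (right, 2 against 2 mice), on 1 shared linear axis. All intervals on the left hold 0 and the points lie between -0.04 and 0.26, while on the right Hapln2 (-1.10) and Vcan (-0.70) lie left of 0 and Acan (0.76) and Hapln4 (1.08) right of it, although no gene passed after adjustment.

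Whether a gene responded differently to the loss of both alleles than to the loss of 1 was tested as the difference of the 2 log2 fold changes, over all 11 libraries with each mutant set against its own WT. This test called 3 of the 9 genes, against 27.3% of 14905 genes, a count near the background and no result about these genes. The difference (homozygous minus heterozygous) was 1.04 for Hapln4 (SE 0.22, edgeR adjusted p = 0.00709), -0.82 for Vcan (SE 0.20, edgeR adjusted p = 0.0140) and -1.38 for Hapln2 (SE 0.38, edgeR adjusted p = 0.0224). Acan, at 0.64 (SE 0.27), did not pass (edgeR adjusted p = 0.0999), and the other 5 lay between -0.25 and 0.27. Hapln4 and Vcan passed in all 17 alternatives, and Hapln2 in 12 of 17. Since the mutants were sequenced in separate rounds and the homozygous-round WT libraries carry striatal RNA, genotype dose cannot be told apart from round or from those libraries in this test.

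The balance between link proteins was read as a ratio within each library. The ratio of Hapln4 to Hapln1 in CPM was 1.06 to 1.59 over the 7 libraries of the heterozygous round, 2.60 and 2.38 in the homozygous-round WT libraries, and 2.90 and 6.52 in 1b-/- mice. The ratio of 2 genes within a library does not depend on library scaling, and it shows unequal change, not which of the genes moved. Hapln4 took 8.21% and 10.5% of the summed CPM of the 10 genes in these WT libraries and 13.7% and 20.4% in 1b-/- mice, against 6.61% to 8.12% in the heterozygous round.

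Bcan, Vcan and Ncan each have a link protein gene as their neighbour in the mm9 annotation (GENCODE), with no annotated gene between them. Bcan (chr3:87791453-87804278, minus strand) lies 21393 bases from Hapln2 (chr3:87825672-87831505, minus strand). Vcan (chr13:89794915-89882117, minus strand) faces Hapln1 (chr13:89680241-89751437, plus strand) across 43477 bases, and Ncan (chr8:72616984-72644772, minus strand) faces Hapln4 (chr8:72607428-72614761, plus strand) across 2222 bases. In the homozygous comparison Bcan was at a log2 fold change of 0.07 beside -1.10 for Hapln2. Vcan was at -0.70 beside 0.24 for Hapln1, and Ncan at 0.16 beside 1.08 for Hapln4. These values rest on the WT libraries with striatal RNA. In the heterozygous comparison the same pairs were at 0.005 and 0.26, 0.11 and -0.04, and -0.004 and 0.02. Positions of Acan and the link protein gene Hapln3 were not compared. Their homozygous log2 fold changes were 0.76 (SE 0.28) and 0.94 (SE 0.69). In the heterozygous comparison they went in opposite directions, at 0.11 (SE 0.13) for Acan and -0.67 (SE 0.25, edgeR adjusted p = 0.354) for Hapln3. Hapln3 was near the filter of 1 CPM, at 0.281 and 0.767 CPM in the homozygous-round WT libraries and 0.994 and 1.03 CPM in 1b-/- mice. Tnr lies on chromosome 1, Has2 on chromosome 15 and Has3 on chromosome 8, and none of the 10 shares chromosome 2 with Scn1a.

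The libraries were stranded, but the strand setting of the counting is not given in the sources used here. Vcan overlaps Gm16318 and Gm4117, and Has2 overlaps its antisense gene Has2as, all on the opposite strand, so that reads of Vcan and Has2 cannot be told apart with certainty from those of their partners.

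The 3 genes whose levels ran closest to Acan, by the root-mean-square difference in log2 CPM (each round centred on its mean) over 11 libraries among 14151 genes, were Fam163b at 0.08, C4b at 0.09 and Grem1 at 0.09. Their log2 fold changes were 0.09, 0.13 and 0.08 in the heterozygous and 0.66, 0.94 and 0.71 in the homozygous comparison, and none was called in the homozygous comparison (edgeR adjusted p = 0.132, 0.0985 and 0.326). Because these genes were picked by closeness to Acan in the same libraries, fold changes near those of Acan follow from the choice and are no separate result.

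Beyond the 10 genes, 56 others that make, sulfate, cut or bind this matrix were read in 5 lists. In the heterozygous comparison 52 were tested and 0 were called by edgeR's quasi-likelihood test (13 had an unadjusted p under 0.05, against 11.3% of all genes, and DESeq2 called 1, against 1.67% of all genes), with a median log2 fold change of -0.04. The smallest p belonged to Rtn4rl1, a Nogo receptor homologue, from 71.8 ± 3.74 CPM in WT (SD, n = 3) to 63.3 ± 2.24 in 1b+/- mice (SD, n = 4, log2 fold change -0.18, edgeR adjusted p = 0.240). Next came Csgalnact1, which starts chondroitin sulfate chains, from 22.5 ± 0.0517 to 19.5 ± 1.08 CPM (log2 fold change -0.21, edgeR adjusted p = 0.259).

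In the homozygous comparison 53 were tested, of which 3 were called higher and 1 lower, against 3.58% of all genes called. Crtac1, a secreted cartilage acidic protein, rose from 44.4 ± 4.50 to 146.5 ± 4.85 CPM (SD, n = 2 each, log2 fold change 1.72, edgeR adjusted p = 0.0191). Ust, which sulfates chondroitin and dermatan chains at uronic acid, rose from 41.2 ± 3.41 to 101 ± 14.96 CPM (log2 fold change 1.30, edgeR adjusted p = 0.0283). Rtn4rl2, a Nogo receptor homologue, rose from 16.5 ± 6.07 to 62.5 ± 2.45 CPM (log2 fold change 1.92, edgeR adjusted p = 0.0333). Sema3a, a secreted axon guidance protein that binds chondroitin sulfate in nets, fell from 29.5 ± 2.37 to 5.84 ± 2.58 CPM (log2 fold change -2.34, edgeR adjusted p = 0.0349). Without WT replicate 1 none of these 4 calls remained, since that fit called 0 genes, and the striatal RNA of the WT libraries cannot be told apart from genotype here.

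By role, 11 of 17 tested chondroitin sulfate synthesis genes were higher and 6 lower in 1b-/- mice by the sign of the log2 fold change (median 0.29), and all 5 chondroitin sulfate receptors were higher (median 0.94, 1 called). The 13 tested matrix proteases and inhibitors had a median of 0.33 with 0 called, the 10 genes of hyaluronan synthesis, turnover and binding 0.18 with 0 called, and the 8 other matrix proteins 0.12 with 1 called in each direction. The median over all 53 was 0.29, against 0.00 for all genes tested. Of the 53, 24 had an unadjusted p under 0.05 in edgeR's quasi-likelihood test, against 26.4% of all genes, while 3.58% of all genes were called. These values rest on the WT libraries with striatal RNA, which cannot be told apart from genotype in this comparison. In 1b+/- mice the 5 list medians lay between -0.13 and 0.19. Chst13 and Mmp3 were at or under 3 counts in every group.

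**Figure D4:**
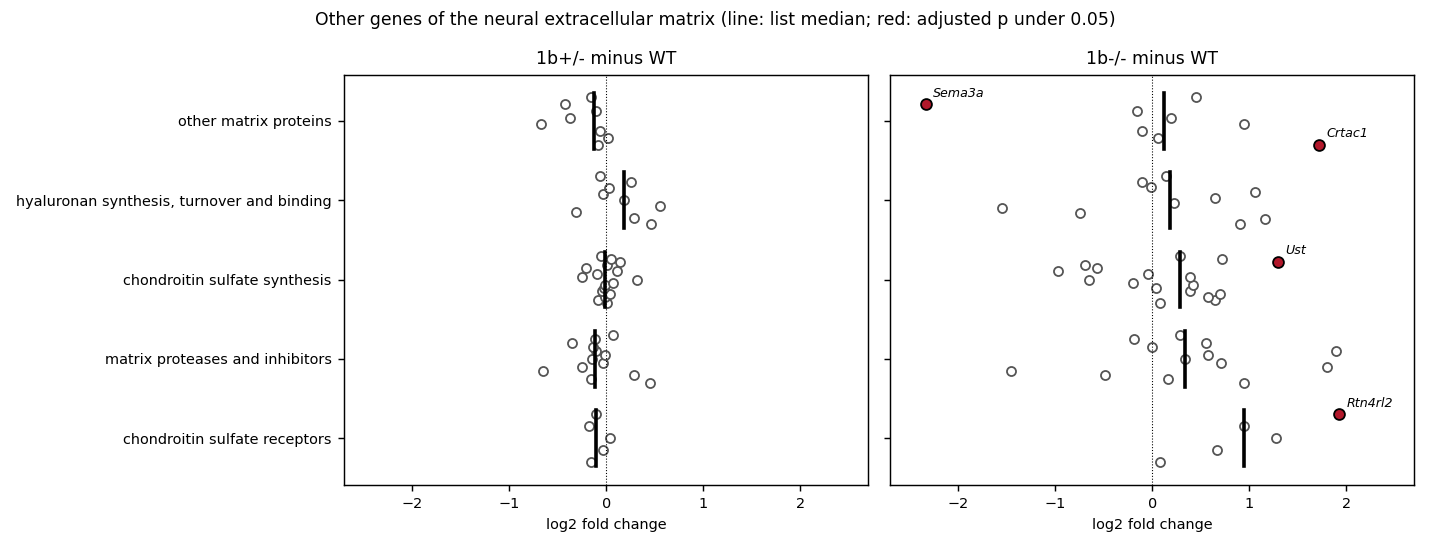
Each point is 1 gene of the 5 matrix lists, placed by its log2 fold change for 1b+/- minus WT (left) and 1b-/- minus WT (right) on 1 shared linear axis, with a line at the list median and red points for adjusted p under 0.05 in edgeR's quasi-likelihood test. No point is red on the left, and on the right Crtac1, Ust and Rtn4rl2 are red above 0 and Sema3a is red below 0.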

How the data were processed

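The values deposited are raw counts, 1 table a round, which the authors made by mapping reads to mm9 (STAR 2.7.2) and assigning them to genes (featureCounts). The tables were matched to mice by column names, and no column was left unused. Each table holds 27 symbols turned into dates, with 0.300% to 0.372% of the counts of a library. The 10 genes and all lists were chosen with earlier results of these data known. Groups and sex came from the labels.

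Tests were run in edgeR 4.0.16 (R 4.3.3). A gene was kept if any library reached 1 CPM. The fit used TMM factors, estimateDisp, glmQLFit and glmQLFTest, Benjamini-Hochberg adjustment over all tested genes and a threshold of 0.05, with genotype as the only term. The difference between comparisons was fitted over all 11 libraries in 4 groups. The SE of a log2 fold change was taken as its size over the square root of F, with 95% intervals from its degrees of freedom. Common biological variation between mice (BCV) came to 9.13% for the heterozygous round and 22.9% for the homozygous. Replicates differed by more than sampling noise. P-values of these fits are set against the spread between mice.

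In simulated counts 200 genes differed by a log2 fold change of 1.5. Counts were drawn with the real library sizes and mean levels, and with a spread between mice that followed the trend over level. Neither a spread particular to a gene nor a difference in tissue between libraries was put in. The rates below are therefore not those of libraries that differ in tissue. The test found 99.5% of them in the heterozygous comparison (14630 genes), 73% in the homozygous (14838 genes) and 82.5% for the difference (14905 genes). It also called 6, 7 and 8 genes that had been given no difference. Hapln2, the largest in size of the 9 genes, stood at 0.26, -1.10 and -1.38 in the real data. Recovery at sizes below 1.5 was not tested. Genes named in the text were the 10 genes, Scn1a, called genes of the 5 matrix lists (up to the 5 with the smallest p in a comparison, or the 2 with the smallest p where none was called), the 3 genes nearest to Acan, with 0.5 CPM added before the log2, and markers on which a result turns or that were near 0. A sequence is not reported here. Astrocyte, neocortex and thalamus markers were also read: 0 of 8, 2 of 6 (lower) and 0 of 6 were called in the homozygous comparison, and 0 in the heterozygous. Alternatives were edgeR's likelihood ratio test, DESeq2 1.42.0, sex as a covariate, RLE factors, 1 fit of all libraries, filterByExpr or no filter, and leaving out each library. Within each round only 1 mouse was of the other sex (1b+/- replicate 4 or 1b-/- replicate 1). A sex term within a round therefore nearly repeats the fit without that mouse and cannot separate sex from that mouse.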

Additional observations from a re-analysis of the deposited data

Results flagged for a closer look

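Hapln1 in 1b+/- mice was picked out because the female mouse, at 46.1 CPM, lay apart from the other 3 at 57.4 to 58.0 CPM: its gap to the nearest took 0.942 of the range of the group. Chance picks out about 1 in 20 groups of this kind, and 10 genes were looked at.

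Vcan, Hapln2 and Hapln4 were picked out because their log2 fold changes differed between the homozygous and the heterozygous comparison in the test of that difference. That test called 3 of the 9 genes and 27.3% of all genes, so the count lies near the background and is no result about these genes. The differences were -0.82 for Vcan, -1.38 for Hapln2 and 1.04 for Hapln4. The 2 comparisons share no library, and they differ in round, read type and the tissue markers of their WT mice.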

How the results depend on the processing

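No paired analysis was possible because the labels give no replicate numbers that link mice. Each round held only 2 or 3 WT mice, and depth bears most on Has2 (7 to 23 counts a library), Has3 (75 to 152) and Acan (95 to 329). In the heterozygous comparison, calls over all genes went from 0 to 191 with the likelihood ratio test, 245 with DESeq2 and 44 with no filter, and ran from 0 to 421 with a library left out. Calls among the matrix lists were 1 with DESeq2 and 0 to 1 with a library left out, and 0 to 1 of the 9 genes were called with a library left out. In the homozygous comparison, the 531 calls became 1829 with the likelihood ratio test, 2144 with DESeq2, 1029 with no filter and 5541 with all libraries in 1 fit, and 0 to 693 with a library left out (0 without WT replicate 1 and 192 without WT replicate 2). Of the 9 genes, 3 were called by the likelihood ratio test and by DESeq2, 4 with all libraries in 1 fit, 1 (Hapln4) with no filter and with sex as a covariate, and 0 to 1 with a library left out. The 4 matrix list calls became 15 with the likelihood ratio test and with DESeq2, 27 with all libraries in 1 fit, 8 with no filter, 7 with sex as a covariate and 0 to 7 with a library left out. Against the heterozygous-round WT, chosen after seeing the data, 7774 genes, 7 of the 9 and 24 matrix list genes were called, and the direction turned for Hapln1 (-0.54), Hapln2 (0.72), Ncan (-0.26) and Tnr (-0.64).

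In the other turns of direction, neither the main value nor the turned value was called. With sex as a covariate the log2 fold change turned in the heterozygous comparison for Hapln1 (0.034), Hapln4 (-0.0035), Has3 (0.029) and Ncan (0.032), in the homozygous for Bcan (-0.016) and Hapln1 (-0.011), and in the difference for Bcan (-0.023) and Hapln1 (-0.030). Leaving out the female 1b+/- mouse gave nearly the same heterozygous values (0.034, -0.0036, 0.029 and 0.032). Leaving out the male 1b-/- mouse did so for the homozygous ones (-0.015 and -0.010). With no filter Has3 turned to 0.00058 in the heterozygous comparison. With a library left out, heterozygous values ran from -0.030 to 0.029 for Bcan, -0.10 to 0.034 for Hapln1, -0.024 to 0.053 for Hapln4, -0.15 to 0.21 for Has3, -0.030 to 0.032 for Ncan, -0.0080 to 0.083 for Tnr and -0.0011 to 0.19 for Vcan. Homozygous values ran from -0.11 to 0.28 for Bcan, -0.010 to 0.45 for Hapln1 and -0.58 to 0.20 for Has3, and the differences from -0.13 to 0.26 for Bcan, -0.59 to 0.18 for Has3 and -0.0083 to 0.43 for Tnr. In the difference Tnr passed without WT replicate 2 of the homozygous round (0.43, edgeR adjusted p = 0.00936) and Acan without 1b-/- replicate 1 (0.86, edgeR adjusted p = 0.0363). Hapln2 lost its call in the difference with sex as a covariate (edgeR adjusted p = 0.0690) and without WT replicates 2 and 3 of the heterozygous round, WT replicate 1 of the homozygous round or 1b-/- replicate 1 (0.0506 to 0.0745). The causes were not tested.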
